A study of Mus musculus with 20 samples.

Results

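The mRNA levels of 5 genes of the liver peroxisome were followed in mice after silencing of Ppara: Ehhadh, Acaa1b, Abcd3, Pex11a and Pex19. They were taken as every probe whose only gene symbol in the array annotation was one of these names, which gave 5 probes, 1 for each gene, of 23493 probes on the array and 5 of the 15252 genes with a probe of a single symbol. Mouse livers were collected 48 h after a hydrodynamic tail vein injection, in which a large volume of Ringer's solution is pushed rapidly into the vein so that its content reaches the liver. There were 5 groups of 4 mice: PPARa-M siRNA and PPARa siRNA, which target different stretches of the Ppara mRNA; SEAP-M control siRNA and GL3 control siRNA, which target secreted alkaline phosphatase and GL3, a firefly luciferase; and vehicle, Ringer's solution without siRNA. The siRNA groups received 40 µg siRNA each, so that all groups, vehicle included, share the injection itself. The meaning of the suffix M is not given in the sources used here, nor are strain, sex and age; the siRNAs with the suffix were compared with each other, as were those without it. Whole liver RNA of each mouse was hybridized against pooled RNA of 4 vehicle mice, and the values are log10 ratios to that pool; whether these are the same 4 mice that were hybridized singly is not given. In whole liver, fewer cells of a type and less RNA per cell cannot be told apart, and ratios to a liver pool do not allow a check of the tissue by the level of its markers.

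Peroxisomes shorten very long chain and branched fatty acids, which mitochondria cannot begin to degrade, by a cycle of beta-oxidation of their own. Abcd3 carries the acyl-CoA substrates across the peroxisomal membrane, Ehhadh performs the hydration and the dehydrogenation in the middle of the cycle, and the thiolase Acaa1b releases the shortened chain. Pex11a elongates the membrane before a peroxisome divides, and Pex19 is the chaperone that brings newly made membrane proteins, Abcd3 and Pex11a among them, to the organelle. The nuclear receptor PPARα is known for switching on many of these genes in rodent liver when it binds fatty acids or fibrate drugs, and proliferation of peroxisomes under such drugs gave the receptor its name.

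The promoters of Ehhadh and Acaa1b, each lower in PPARa-M than in vehicle livers, and of Pex11a, whose mean was the same in both Ppara siRNA groups, are shown as RefSeq gives them for assembly GRCm38.p6, from 250 bases before to 50 bases after the start site, 5′ to 3′ on the minus strand, on which all 3 genes lie. Pex19, also lower than in vehicle livers, had no promoter entry. A relation between these sequences and the mRNA levels was not tested. Capitals mark each CCAAT box (CCAAT or its complement ATTGG) and each GGGCGG box (GGGCGG or CCGCCC), searched on both strands.
Ehhadh, chr16:21787785-21788084: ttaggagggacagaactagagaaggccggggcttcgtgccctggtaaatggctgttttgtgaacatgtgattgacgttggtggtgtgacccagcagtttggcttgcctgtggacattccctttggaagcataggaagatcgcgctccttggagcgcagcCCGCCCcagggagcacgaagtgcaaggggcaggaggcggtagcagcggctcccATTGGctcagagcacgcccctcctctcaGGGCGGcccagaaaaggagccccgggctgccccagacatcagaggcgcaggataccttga
Acaa1b, chr9:119157044-119157343: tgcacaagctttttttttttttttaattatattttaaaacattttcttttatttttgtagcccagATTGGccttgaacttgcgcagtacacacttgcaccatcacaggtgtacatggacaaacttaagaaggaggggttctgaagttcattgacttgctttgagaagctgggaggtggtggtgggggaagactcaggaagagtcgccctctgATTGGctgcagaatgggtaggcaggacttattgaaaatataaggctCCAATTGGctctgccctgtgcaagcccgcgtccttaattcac
Pex11a, chr7:79743082-79743381: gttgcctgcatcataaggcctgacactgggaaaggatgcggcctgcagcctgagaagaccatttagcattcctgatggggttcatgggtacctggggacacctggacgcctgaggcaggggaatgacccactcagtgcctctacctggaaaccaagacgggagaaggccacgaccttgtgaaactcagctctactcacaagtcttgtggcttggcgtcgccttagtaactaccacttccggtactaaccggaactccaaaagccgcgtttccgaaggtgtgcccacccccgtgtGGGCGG
Ehhadh and Acaa1b each held an ATTGG whose first base lay at -38 from the start site, with 1 such box in all in Ehhadh and 4 in Acaa1b, of which the last pair overlaps. The Pex11a window held none, whereas 37.4% of 32851 promoters of this length hold at least 1. The GGGCGG box occurred in Ehhadh (2 matches) and Pex11a (1 match), but not in Acaa1b, and in 35.7% of all promoters. No window of the 4 members with an entry held AGGTCA or its complement, the core motif of nuclear receptor binding sites, which 16.3% of promoters held, and 2 copies in the same direction with 1 base between them occurred in 0.0396%. TATAAA was likewise in none of them, against 13.6% of promoters. Only exact matches inside the windows were searched, so that diverged or more distant sites would be missed. The Acaa1b window had 43.7% G and C bases, below the median of 52.7% over all promoters, whereas Ehhadh had 60.7% and Pex11a 57.3%. By the same annotation the gene bodies lie at chr16:21761285-21787834 (Ehhadh), chr9:119148043-119157093 (Acaa1b), chr3:121758904-121815302 (Abcd3), chr7:79735957-79743131 (Pex11a) and chr1:172126755-172136497 (Pex19).

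Ppara itself, the target of the siRNAs, was measured by 4 probes, whose mean is given here. The PPARa-M mice had log10 ratios of -0.177, -0.317, -0.178 and -0.186, and the SEAP-M mice 0.242, -0.0468, 0.0374 and -0.0204, with no overlap between these groups. A negative ratio is taken to mean less mRNA in the mouse than in the pool: this direction is likely rather than stated, and rests on the order of pool and mouse in the sample titles, on the same dye orientation of all arrays and on siRNAs made to lower Ppara, so that low Ppara ratios are no separate check of it. With the sign turned, every lower level given here would be a higher one. On the log2 scale the 4 Ppara probes were lower by 0.84 to 0.92 in PPARa-M than in SEAP-M livers, with limma adjusted p between 0.00642 and 0.0216. The PPARa siRNA mice had log10 ratios of 0.0258, -0.126, -0.0876 and -0.106, against 0.0114, 0.061, 0.00137 and 0.0447 in GL3 mice, and here no probe passed (limma adjusted p between 0.754 and 0.96). Ppara in PPARa livers averaged 78.8% of that in GL3 livers, and in PPARa-M livers 54.0% of that in SEAP-M livers. The 4 PPARa-M arrays also had the wider spread of ratios over all probes, with interquartile ranges of 0.0735 to 0.124 on the log10 scale, against 0.0442 to 0.0852 on the other 16 arrays. Replicate B of PPARa-M siRNA was the widest.

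The clearest differences among the 5 genes separated PPARa-M from vehicle livers. Ehhadh, Acaa1b and Pex19 were lower in PPARa-M livers, at 74.9% to 76.9% of vehicle on average, and passed the test over all probes, whereas Abcd3 and Pex11a stood near the vehicle level. Thus 3 of 5 members passed, against a background of 6.83% of all probes that passed in either direction and 3.43% that passed as lower in this comparison. Each of the 3 had all 4 PPARa-M mice below all 4 vehicle mice, which 7.23% of all probes also had. None of the 3 passed once the arrays were brought to 1 common distribution by quantile normalization (limma adjusted p between 0.203 and 0.263) or to 1 interquartile range (between 0.157 and 0.226), where their log2 fold changes were -0.26 to -0.31 and -0.21 to -0.29.

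**Figure D1:**
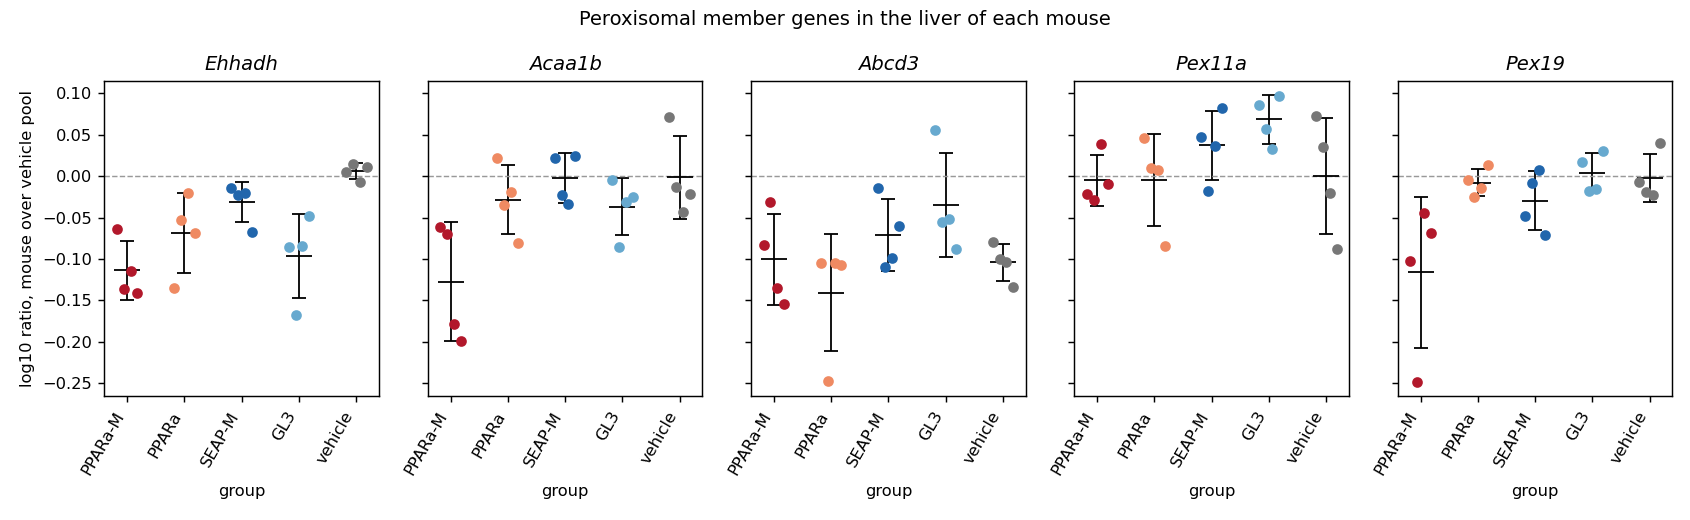
Log10 ratio to the vehicle pool (y axis) of each gene in each of the 20 mice, by group (x axis), where points are mice and bars the mean ± SD of 4 mice. In Ehhadh all siRNA mice lie below the lowest vehicle mouse at -0.0077, and in Acaa1b and Pex19 the PPARa-M mice reach -0.199 and -0.248.

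Ehhadh, the bifunctional enzyme of the cycle, had log10 ratios of -0.0638, -0.1362, -0.1149 and -0.1406 in PPARa-M mice and of -0.014, -0.0224, -0.021 and -0.0678 in SEAP-M mice. Among the vehicle mice its ratios were 0.0053, 0.0147, -0.0077 and 0.0111, a standard deviation of 0.00983, and only 2.83% of all probes varied less in that group. The PPARa-M mice thus lay below every vehicle mouse, while 1 of them overlapped the lowest SEAP-M mouse. The mean was -0.114 ± 0.0352 with PPARa-M siRNA, -0.0313 ± 0.0246 with SEAP-M and 0.00585 ± 0.00983 with vehicle (log10 ratio, SD, n = 4 each). PPARa-M differed from vehicle by a log2 fold change of -0.40 (SE 0.0884, limma adjusted p = 0.0153) and from SEAP-M by -0.27 (SE 0.0884, limma adjusted p = 0.0991), of which only the difference from vehicle passed. Without vehicle replicate D that value was -0.39 and its limma adjusted p 0.0573.

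Ehhadh was low with the other siRNAs as well. The PPARa siRNA mice had log10 ratios of -0.1345, -0.0526, -0.02 and -0.0681, and the GL3 mice -0.0858, -0.1675, -0.0842 and -0.0482. No siRNA mouse of any of the 4 groups reached the lowest vehicle mouse, so that Ehhadh was the 1 member of 5 whose PPARa, SEAP-M and GL3 mice each lay wholly below vehicle. Backgrounds were 1.98%, 2.58% and 1.63% of probes, each for its comparison alone. The share of probes with the pattern in all of them together was not counted. By log2 fold change relative to vehicle, Ehhadh was at -0.25 with PPARa siRNA (SE 0.0884, limma adjusted p = 0.56), at -0.12 with SEAP-M (SE 0.0884, limma adjusted p = 0.944) and at -0.34 with GL3 (SE 0.0884, unadjusted p = 0.0012 in limma, adjusted p = 1), none of which passed. Only 1.12% of probes had a lower log2 fold change with GL3. The order of the group means, from low to high, was PPARa-M, GL3, PPARa, SEAP-M and vehicle, and all neighbours in it overlapped except SEAP-M and vehicle. Between PPARa and GL3 livers the log2 fold change was 0.092, with a 95% interval from -0.094 to 0.278. These comparisons with vehicle share the same 4 vehicle mice.

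Acaa1b, a thiolase of the last step, had its lowest ratios in PPARa-M mice. Their log10 ratios were -0.0614, -0.0704, -0.1789 and -0.1986, so that replicates C and D stood well below A and B. In SEAP-M mice the ratios were 0.022, -0.0233, -0.0334 and 0.0245, and no mouse of these groups overlapped, whereas vehicle mice had 0.071, -0.0127, -0.0428 and -0.0216. Relative to SEAP-M the log2 fold change was -0.41 (SE 0.11), or 75.0% of the SEAP-M level, and its limma adjusted p of 0.051 just missed the threshold. Relative to vehicle it was -0.42 (SE 0.11, limma adjusted p = 0.0313), which passed, but not without replicate C or D of PPARa-M siRNA or replicate A or D of vehicle (limma adjusted p between 0.0698 and 0.0977). The value relative to SEAP-M passed without replicate A or B of PPARa-M siRNA (limma adjusted p = 0.0261 and 0.0418). The PPARa siRNA mice had log10 ratios of 0.0214, -0.0348, -0.0195 and -0.0804, against -0.005, -0.0852, -0.0311 and -0.0256 in GL3 mice. Replicate A of PPARa siRNA lay above every GL3 mouse and the others within the GL3 range. Here the log2 fold change was 0.028, with a 95% interval from -0.203 to 0.259. The probe is annotated from an expressed sequence tag, and its near-identical paralog Acaa1a has no probe of its own symbol here, so that the signal may hold mRNA of both. In group means, PPARa-M was followed by GL3, PPARa, SEAP-M and vehicle, and all neighbours overlapped.

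Pex19, the chaperone of peroxisomal membrane proteins, had log10 ratios of -0.103, -0.2482, -0.0445 and -0.0685 in PPARa-M mice, of which replicate B was by far the lowest. The SEAP-M mice had -0.0478, -0.008, 0.0069 and -0.0706, overlapping with PPARa-M, and the vehicle mice had -0.0066, -0.0191, -0.0228 and 0.0399, all above PPARa-M. With PPARa siRNA the ratios were -0.0051, -0.0252, -0.015 and 0.0132, and with GL3 0.0171, -0.0181, -0.0154 and 0.0301. Only the PPARa-M mice all lay below the lowest vehicle mouse. The log2 fold change of PPARa-M siRNA was -0.38 relative to vehicle (SE 0.109, limma adjusted p = 0.0448), -0.36 relative to PPARa siRNA (SE 0.109, limma adjusted p = 0.0439) and -0.29 relative to SEAP-M (SE 0.109, limma adjusted p = 0.162). The first 2 of these passed. Without replicate B of PPARa-M siRNA they were -0.23 (limma adjusted p = 0.0997) and -0.21 (limma adjusted p = 0.0963), and neither passed, whereas Ehhadh and Acaa1b still passed relative to vehicle without that mouse (limma adjusted p = 0.0442 and 0.034). The Pex19 values also missed the threshold without replicate A of PPARa-M siRNA (limma adjusted p = 0.0665 relative to vehicle and 0.0646 relative to PPARa siRNA), without any 1 vehicle mouse (0.0559 to 0.161) and without any 1 PPARa mouse (0.0591 to 0.0984). PPARa livers stood at 97.4% of GL3 livers in Pex19, a log2 fold change of -0.038 with a 95% interval from -0.268 to 0.192. Among the group means, SEAP-M came after PPARa-M, then PPARa, vehicle and GL3, each overlapping with its neighbours.

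Abcd3, the transporter of acyl-CoA into the peroxisome, showed another pattern. Its log10 ratios were -0.1053, -0.2467, -0.1044 and -0.1072 in PPARa mice, against 0.0558, -0.0559, -0.052 and -0.0885 in GL3 mice, with no overlap. The log2 fold change of PPARa relative to GL3 was -0.35 (SE 0.122, unadjusted p = 0.0098 in limma, adjusted p = 0.591), or 78.4% of GL3, and did not pass. Replicate B of the PPARa mice and replicate A of the GL3 mice were the extremes; without the first the value was -0.23, and without the second -0.25. In PPARa-M mice the ratios were -0.083, -0.0307, -0.1345 and -0.1539, against -0.0148, -0.1101, -0.0992 and -0.0607 in SEAP-M mice. Replicates C and D of PPARa-M siRNA lay below the lowest SEAP-M mouse and the others within the SEAP-M range, and the log2 fold change was -0.097, with a 95% interval from -0.353 to 0.158. Vehicle mice were themselves below the vehicle pool in Abcd3, at -0.0795, -0.1003, -0.1032 and -0.1334, and only 0.413% of all probes had a lower vehicle mean than its -0.104 ± 0.0222 (SD, n = 4). All 4 vehicle mice lay below the pool in 2.92% of probes. A ratio below 0 in Abcd3 is therefore no sign of less mRNA than in vehicle livers, and relative to these the log2 fold change was 0.012 with PPARa-M, -0.12 with PPARa, 0.11 with SEAP-M and 0.23 with GL3, none of which passed. From low to high the means ran PPARa, vehicle, PPARa-M, SEAP-M and GL3, with overlap between all neighbours.

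Pex11a, which shapes the membrane for division, differed little. Its log10 ratios were -0.0216, -0.0289, 0.0385 and -0.009 in PPARa-M mice and 0.0464, 0.0096, 0.007 and -0.084 in PPARa mice, with the same mean of -0.00525 in both groups. SEAP-M mice had 0.0467, -0.0184, 0.0368 and 0.0825, GL3 mice 0.0862, 0.0571, 0.0327 and 0.097, and vehicle mice 0.073, 0.0355, -0.0204 and -0.0875. The vehicle mice thus spanned nearly the whole range of the gene, and 84.2% of probes varied less in that group. The log2 fold change was -0.14 between PPARa-M and SEAP-M (SE 0.11, limma adjusted p = 0.532) and -0.24 between PPARa and GL3 (SE 0.11, unadjusted p = 0.0398 in limma, adjusted p = 0.83). Relative to GL3, 3 of 4 PPARa mice lay below the lowest GL3 mouse, but GL3 was the group that stood highest, 0.23 above vehicle on the log2 scale (SE 0.11, limma adjusted p = 1), and PPARa relative to vehicle was at -0.018. Without replicate D of PPARa siRNA the difference from GL3 was -0.16. The means ran PPARa-M and PPARa together, then vehicle, SEAP-M and GL3, all neighbours overlapping.

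**Figure D2:**
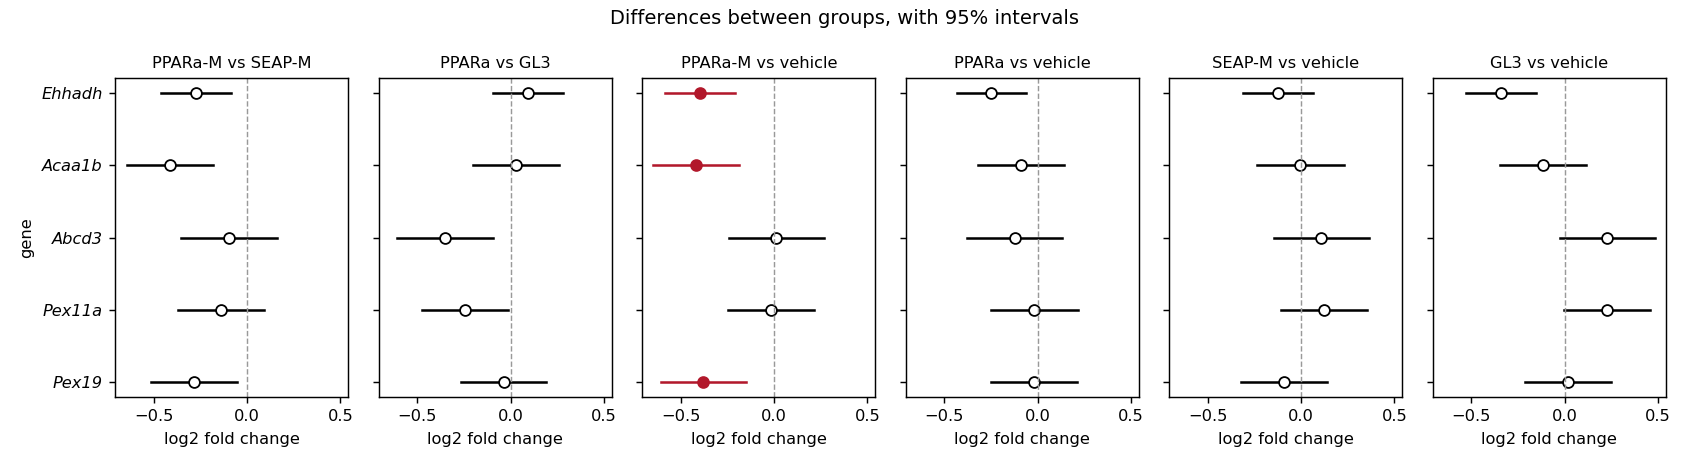
Log2 fold change (x axis) of each gene (y axis) in 6 comparisons, with 95% intervals from the limma fit; filled red symbols passed at an adjusted p under 0.05. Only Ehhadh, Acaa1b and Pex19 passed, each in PPARa-M relative to vehicle, and Abcd3 and Pex11a were lowest in PPARa relative to GL3, at -0.35 and -0.24.

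Against the control siRNAs, which share the injection and the presence of an siRNA with the Ppara siRNAs, no member passed in the fit as deposited; Acaa1b passed for PPARa-M relative to SEAP-M with array quality weights (limma adjusted p = 0.0125) and with the replicate letter as a block (limma adjusted p = 0.0267). PPARa-M was lower than SEAP-M in 5 of 5 members, with a median log2 fold change of -0.27, against a median of -0.010 over all probes. After quantile normalization the count was 4 of 5, with Abcd3 at 0.026, Ehhadh at -0.17 and Pex19 at -0.19, and after scaling to 1 interquartile range Abcd3 stood at 0.0083, Ehhadh at -0.15 and Pex19 at -0.14. Of the 5, 0 passed in limma, where 2.69% of all probes did, and 3 (Ehhadh, Acaa1b and Pex19) were lower at an unadjusted p under 0.05, where 10.2% of probes were. Acaa1b alone had no overlap between these groups, a pattern found in 6.08% of probes. PPARa compared with GL3 gave 0 of 5 by limma, against 0.145% of probes, and 2 of 5 (Abcd3 and Pex11a) at an unadjusted p under 0.05, against 3.45% of probes lower there. Abcd3 was the 1 member without overlap, as were 2.23% of probes. With both Ppara siRNAs set against both control siRNAs (8 mice each), the log2 fold change was negative in 5 of 5, from -0.22 in Abcd3 to -0.091 in Ehhadh, and again 0 passed, against 0.255% of probes, while 3 (Acaa1b, Abcd3 and Pex11a) were lower at an unadjusted p under 0.05, against 6.21% of probes.

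The effects of both Ppara siRNAs, each relative to its own control siRNA, were then set side by side; they share no mice. Ehhadh, Acaa1b and Pex19 had log2 fold changes of -0.27, -0.41 and -0.29 for PPARa-M relative to SEAP-M, and of 0.092, 0.028 and -0.038 for PPARa relative to GL3. Abcd3 and Pex11a had -0.097 and -0.14 for PPARa-M and -0.35 and -0.24 for PPARa. The difference between the siRNAs, each relative to its own control, was tested directly: it was -0.44 in Acaa1b (SE 0.156, limma adjusted p = 0.198), -0.37 in Ehhadh (SE 0.125, limma adjusted p = 0.182), -0.25 in Pex19, 0.25 in Abcd3 and 0.10 in Pex11a on the log2 scale. None of 5 passed in limma, against 1.67% of probes, and Ehhadh and Acaa1b were lower at an unadjusted p under 0.05, against 6.49% of probes, so that a difference in response between the siRNAs was not shown for any member. Directly between the Ppara siRNAs, 1 of 5 passed (Pex19, lower with PPARa-M), against 10.2% of probes in either direction and 4.12% lower. PPARa compared with vehicle gave 0 of 5, against 0.166% of probes, with 1 (Ehhadh) lower at an unadjusted p under 0.05, against 3.67% of probes.

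The control siRNAs relative to vehicle had 0 of 5 members past the threshold in limma, for SEAP-M against 0.00426% of probes and for GL3 against 0.00851%, with 0 lower at an unadjusted p under 0.05 for SEAP-M, against 2.6% of probes, and 1 (Ehhadh) for GL3, against 1.52%. Exact permutation tests over mice were made for each member in 7 comparisons, 35 tests in all. With 4 mice a group their smallest two-sided p is 0.0286, which was reached wherever the groups did not overlap; after adjustment over the 35 tests the lowest exact p was 0.1, and none passed.

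Whether the members followed Ppara from mouse to mouse was examined over all 20 mice. The correlation with Ppara was r = 0.633 in Pex19 (rho = 0.541, permutation p = 0.00431 for r and 0.0154 for rho) and r = 0.614 in Acaa1b (rho = 0.577, permutation p = 0.00457 and 0.00926). Pex11a had r = 0.423 (rho = 0.531, permutation p = 0.0644 and 0.0176), Ehhadh r = 0.411 (rho = 0.374, permutation p = 0.0718 and 0.106) and Abcd3 r = 0.313 (rho = 0.414, permutation p = 0.177 and 0.0699). After adjustment over the 30 tests of this family the lowest permutation p was 0.0546, so that no relation passed. The PPARa-M mice stand apart in Ppara, and part of a correlation over all groups repeats the differences between groups. The same holds within the 8 Ppara siRNA mice, which pool PPARa-M and PPARa mice. Mean log10 ratios of these groups were -0.215 and -0.0736 in Ppara, and -0.116 and -0.00803 in Pex19. The permutations ran across both groups, so that r and p there also hold the difference between them. Within the 8 Ppara siRNA mice r was 0.849 in Pex19 (exact permutation p = 0.00546, adjusted 0.0546; rho = 0.857, exact permutation p = 0.0107), 0.529 in Acaa1b (exact permutation p = 0.185), 0.352 in Pex11a (exact permutation p = 0.39), 0.253 in Ehhadh (exact permutation p = 0.554) and -0.304 in Abcd3 (exact permutation p = 0.455). Without replicate A of PPARa siRNA and replicate B of PPARa-M siRNA, whose Ppara lay farthest out among the 8, r was 0.817 in Pex19, 0.752 in Acaa1b, 0.812 in Ehhadh, -0.32 in Pex11a and -0.00998 in Abcd3; the values of Ehhadh, Pex11a and Abcd3 thus rested on these mice. Within the 12 other mice r lay between -0.118 (Pex19) and 0.315 (Abcd3), and without SEAP-M replicates A and B it was 0.558 in Pex19 and -0.104 in Abcd3, so that these values rest on those 2 mice; a difference in correlation between the 8 and the 12 mice was not tested. Without the 2 mice whose Ppara lay farthest from the median, replicate B of PPARa-M siRNA and replicate A of SEAP-M, gave r = 0.659 in Pex19 and 0.679 in Acaa1b over the remaining mice, and 0.234 in Ehhadh, against 0.411 with all mice.

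**Figure D3:**
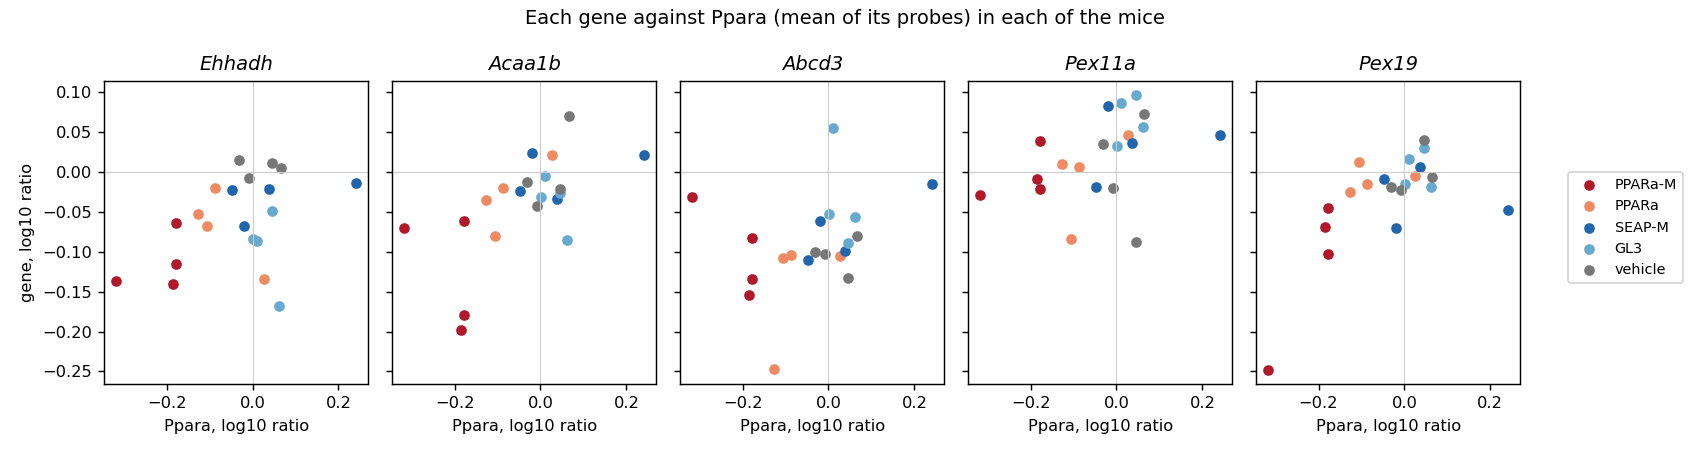
Log10 ratio of each gene (y axis) against that of Ppara (x axis, mean of its 4 probes), both relative to the vehicle pool, with 1 point for each of the 20 mice, coloured by group. The PPARa-M mice lie at the left, between -0.317 and -0.177 in Ppara. In Ehhadh, Acaa1b and Pex19 they lie below every vehicle mouse but overlap with mice of other siRNA groups. In Abcd3 and Pex11a they lie among the other mice, vehicle included.

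A common movement of the members was not shown by their pairwise correlations. Of the 10 pairs among them, the highest correlation over 20 mice was that of Ehhadh with Acaa1b (r = 0.553, rho = 0.523, permutation p = 0.00999 and 0.02), which had an adjusted p of 0.2 over 20 tests and r was 0.175 once the mean of each group was subtracted. In the PPARa-M mice, Acaa1b was lowest in replicates C and D, and Pex19 in replicate B. The correlation of Acaa1b with Pex19 was accordingly 0.261 over all mice and -0.476 with group means subtracted, the lowest of the 10 pairs after that step. The highest after it was that of Acaa1b with Abcd3, at 0.534, against 0.321 over all mice.

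The transcripts whose ratios followed each member most closely over the 20 arrays are given as a description, since 18789 probes with a single symbol were searched for each. Pex19 was most like Wdr45 (r = 0.953), an autophagy protein, Tm2d1 (r = 0.952) and Prkag1 (r = 0.951), a subunit of AMP-activated protein kinase. All 3 had their lowest ratio in replicate B of PPARa-M siRNA, at -0.231, -0.2776 and -0.3208 on the log10 scale, and without that mouse r was 0.866, 0.849 and 0.844. Acaa1b was most like Ces2b (r = 0.927), a liver carboxylesterase, Gpr89 (r = 0.923) and Kcnh3 (r = 0.909). Ces2b had the wider range, with -0.3321, -0.2939, -0.5189 and -0.4983 in PPARa-M mice against 0.0965, -0.0962, -0.0721 and -0.0236 in SEAP-M mice, and shared with Acaa1b the low replicates C and D. Ehhadh was most like Ppia (r = 0.833), which encodes cyclophilin A, the glycolytic enzyme Pgk1 (r = 0.811) and Mccc1 (r = 0.798), an enzyme of leucine breakdown. With group means subtracted these correlations were between 0.512 and 0.59, while those of Pex19 and Acaa1b were between 0.841 and 0.959. Abcd3 was most like the apolipoprotein gene Apoa1 (r = 0.729), Ncald (r = 0.717) and Mtarc2 (r = 0.711), and like Abcd3 both Apoa1 and Mtarc2 were below the pool in all 4 vehicle mice. Pex11a was most like Nmb (r = 0.82), 6430411K18Rik (r = 0.739) and 4933400F03Rik (r = 0.738).

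Other peroxisomal genes were set beside the members, in the fit as deposited only. Of 16 further genes of peroxisomal beta-oxidation, 14 had probes, 18 in all, and relative to SEAP-M 2 of the 18 fell with PPARa-M siRNA, against 1.45% of all probes, and 0 rose. Those that fell were Hsd17b4, the bifunctional enzyme for branched substrates (log2 fold change -0.26, SE 0.0657, limma adjusted p = 0.0394), and Amacr, which inverts the methyl branch of such substrates (-0.42, SE 0.0909, limma adjusted p = 0.0195). Hsd17b4 has 3 probes, and the others, at -0.44 and -0.32, did not pass. Hsd17b4 was also the only gene of the list that passed for both Ppara siRNAs against both control siRNAs (-0.24, SE 0.0464, limma adjusted p = 0.038). In that comparison Crot, which makes acylcarnitines of the shortened chains, had -0.49 (SE 0.139, limma adjusted p = 0.169) and the dienoyl-CoA isomerase Ech1 -0.30 (SE 0.0735, limma adjusted p = 0.102). The median of the 18 probes was -0.16, against -0.0018 over all probes. At an unadjusted p under 0.05, 9 of 18 were lower, against 6.21% of all probes. The 3 probes of Hsd17b4, all lower, are not independent, nor are those of Crat, all higher. Relative to vehicle, 3 of 18 fell with PPARa-M siRNA, against 3.43% of all probes (Acot8, Amacr and another probe of Hsd17b4), and 1 rose (Crat, carnitine acetyltransferase, at 0.61, limma adjusted p = 0.00268; its other probes were at 0.13 and 0.039).

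Genes that carry fatty acids into the peroxisome, 4 of 6 with 8 probes, were lower in all 8 probes with PPARa-M siRNA relative to SEAP-M (median log2 fold change -0.27) and in all 8 with PPARa siRNA relative to GL3 (median -0.16), but 0 passed in limma in either, with 3 and 0 lower at an unadjusted p under 0.05. Over all probes, 52.7% and 46.3% were negative in these comparisons, and 10.2% and 3.45% were lower at an unadjusted p under 0.05. Both control siRNAs stood above vehicle in this list. Relative to vehicle, the medians of the 8 probes were -0.18 with PPARa-M, -0.087 with PPARa, 0.089 with SEAP-M and 0.094 with GL3 siRNA. Of these probes, 5 belong to Slc27a2, a very long chain acyl-CoA synthetase, and are not independent; its probe with the smallest p had -0.26 with PPARa-M siRNA (SE 0.0979, limma adjusted p = 0.158), and that of Abcd2, a transporter related to Abcd3, had -0.47 (SE 0.283, limma adjusted p = 0.389). The 4 genes of peroxisomal and mitochondrial division measured besides Pex11a, Fis1, Dnm1l, Mff and Pex11g, had 0 of 4 probes past the threshold, with log2 fold changes from -0.12 to 0.12 with PPARa-M siRNA relative to SEAP-M and from 0.010 to 0.13 with PPARa siRNA relative to GL3, and 0 at an unadjusted p under 0.05.

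The other genes of peroxisome biogenesis, 9 of 12 with 10 probes, resembled Pex19 in direction. With PPARa-M siRNA the median log2 fold change was -0.18 relative to SEAP-M and -0.30 relative to vehicle. SEAP-M itself had a median of -0.14 relative to vehicle, with 8 of 10 probes negative, against 49.9% of all probes. Relative to SEAP-M 0 passed in limma, and 2 were lower at an unadjusted p under 0.05, against 10.2% of all probes. Relative to vehicle 1 of 10 fell, against 3.43% of all probes: Pex16, another factor for membrane proteins (-0.30, limma adjusted p = 0.0189). There 8 were lower at an unadjusted p under 0.05, against 12.0% of all probes. Over the genes of the list the mean log10 ratio was -0.0826, -0.129, -0.0319 and -0.0374 in PPARa-M mice, against 0.0142, -0.0222, -0.0174 and -0.0483 in SEAP-M mice. The difference of -0.0518 between these means was -0.0322 without replicate B of PPARa-M siRNA, and that from vehicle was -0.0717 with and -0.0521 without it. With PPARa siRNA the median was -0.015 relative to GL3. The import receptor Pex5 had -0.32 (SE 0.144, limma adjusted p = 0.243) and Pex3, the docking partner of Pex19, -0.22 (SE 0.145, limma adjusted p = 0.444) for PPARa-M relative to SEAP-M. Among 13 other peroxisomal enzymes, 1 of 13 probes fell with PPARa-M siRNA relative to SEAP-M, against 1.45% of all probes. At an unadjusted p under 0.05, 2 of 13 were lower, against 10.2% of all probes. The probe that fell was that of Nudt7, which splits coenzyme A (-1.07, SE 0.218, limma adjusted p = 0.0151), and its log2 fold change with PPARa siRNA relative to GL3 was 0.031. Ephx2, the soluble epoxide hydrolase, was at -0.45 with PPARa-M siRNA (SE 0.132, limma adjusted p = 0.0705) and catalase (Cat) at -0.24 (SE 0.142, limma adjusted p = 0.393). In size this log2 fold change of Nudt7 exceeded that of each member.

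**Figure D4:**
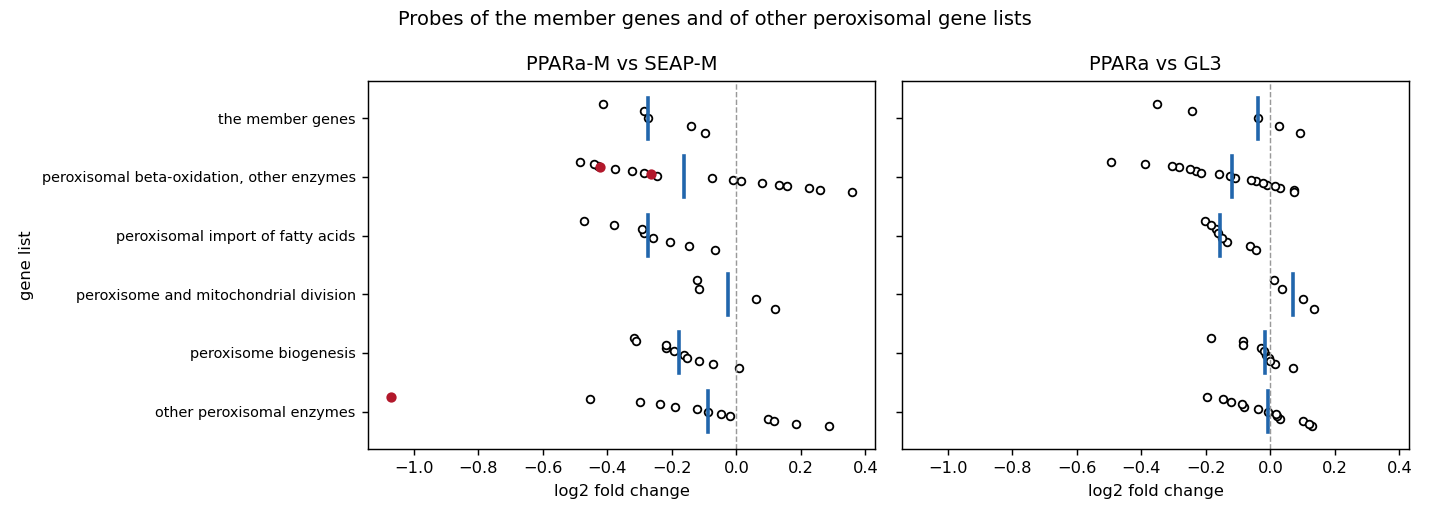
Log2 fold change (x axis) of each probe of the 5 genes and of 5 other peroxisomal gene lists (y axis) for PPARa-M relative to SEAP-M and PPARa relative to GL3; filled red points passed at an adjusted p under 0.05 and blue lines mark the median. Red points are Hsd17b4, Amacr and Nudt7 (-1.07), all with PPARa-M, and the division genes lie around 0.

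Markers of the cell types of the liver were read in the same fits. Hepatocyte markers, 8 of 12 genes with 16 probes, had 3 probes that rose, against 3.4% of all probes, and 0 that fell with PPARa-M siRNA relative to vehicle, Hnf4a (0.47, limma adjusted p = 0.00788) and Apob (0.87, limma adjusted p = 0.0183) among them. Their mean log10 ratio ranged from -0.0127 to 0.0645 over PPARa-M mice and from -0.0414 to 0.0215 over vehicle mice. Another Hnf4a probe was at 0.11 in that comparison (limma adjusted p = 0.372). Relative to SEAP-M 1 of 16 probes rose, against 292 of 23493 over all. It was the Hnf4a probe that rose relative to vehicle (0.35, limma adjusted p = 0.0447). With PPARa siRNA that probe was at -0.15 relative to vehicle and -0.19 relative to GL3. Erythroid markers, 4 of 6 genes, were lower in PPARa-M mice (mean log10 ratio -0.252 to -0.13) than in vehicle mice (-0.107 to 0.0448). Relative to vehicle 2 of 6 probes fell, against 3.43% of all probes, Alas2 by 0.64 on the log2 scale (limma adjusted p = 0.0285). SEAP-M mice ranged from -0.178 to 0.0288 and overlapped with PPARa-M mice. Relative to SEAP-M the median log2 fold change was -0.41, with 0 of 6 probes past the threshold in limma. Sox9, of the cholangiocyte list, rose by 0.55 with PPARa-M siRNA relative to vehicle (limma adjusted p = 0.03), and the 5 probes of that list (4 of 5 genes) were higher with both Ppara siRNAs, with median log2 fold changes of 0.34 for PPARa-M relative to SEAP-M and 0.34 for PPARa relative to GL3, 0 past the threshold in limma and 2 of 5 at an unadjusted p under 0.05 in each. Over all 23493 probes, 1967 and 528 were higher at that level for PPARa-M relative to SEAP-M and PPARa relative to GL3. Neutrophil markers, 7 of 7 genes, stood higher in PPARa mice (mean log10 ratio -0.057 to 0.87, highest in replicate D) than in GL3 mice (-0.0681 to 0.179). Their median log2 fold change was 1.31, with 0 of 7 probes past the threshold in limma and 3 higher at an unadjusted p under 0.05. Replicate D set much of this: the difference in mean log10 ratio between PPARa and GL3 mice was 0.27 with it and 0.0783 without it. The remaining lists had 0 probes past the threshold in either comparison of a Ppara siRNA with its control: Kupffer cell and macrophage markers had medians of -0.092 with PPARa-M and -0.098 with PPARa siRNA, endothelial markers -0.016 and -0.018, and stellate cell markers -0.27 and -0.24, with 2 of 10 and 1 of 10 probes of the last lower at an unadjusted p under 0.05. Of all probes, 10.2% and 3.45% were lower at that level in these comparisons. Relative to vehicle, the stellate cell medians were 0.22 with PPARa-M, -0.13 with PPARa, 0.41 with SEAP-M and 0.12 with GL3 siRNA. Those of Kupffer cell and macrophage markers were 0.069 with PPARa-M and 0.031 with PPARa siRNA. The part of these cell types in the values of the members was not tested. Each group also formed an unbroken run of the numbers in the sample titles, so that any order of processing these stand for and the group cannot be told apart.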

How the data were processed

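The authors hybridized liver RNA of 20 mice with a vehicle pool on 2-colour custom oligonucleotide arrays and deposited log10 ratios for 23493 probes; their normalization is not given in the sources used here, and 40 of 469860 values stand at the limits of the scale. All arrays have the same dye orientation. Symbols are those of the platform annotation (18790 probes with 1 symbol, 65 with several, 4638 with none); 18275 Entrez identifiers matched the GRCm38.p6 gene table.

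Ratios were converted to log2 and fitted as deposited with limma 3.58.1 (R 4.3.3), 1 mean per group over 20 arrays, with Benjamini-Hochberg adjustment over all probes and a threshold of 0.05; the procedure was tested on simulated data. No probe was filtered, since no intensities were used, and the number of arrays limits the precision. Exact permutation tests of differences in mean, and permutation tests of correlations (100000 resamples, exact for 8 mice), were two-sided and used scipy 1.17.1 in Python 3.11.15. The genes studied and all lists were chosen with earlier results of these data known. From each list the 4 genes with the smallest p for both Ppara siRNAs against both control siRNAs, and those that passed there or for PPARa-M against SEAP-M, were eligible for naming, as were the 3 most alike genes per member; Acot8, Pex16 and Crat were named after their values were seen. Alternatives were centring, quantile normalization, scaling to 1 interquartile range, array weights, robust moderation, 1 value per gene, the compared groups alone, a 1.5-fold filter, a threshold of 0.01, a replicate block and each array left out. They were read for the members only, so that calls of genes in the other lists were not rechecked. Values of likeness and of 2 lists without the single mice named were added after seeing the data.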

Additional observations from a re-analysis of the deposited data

Results flagged for a closer look

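Of the 25 sets of 4 mice formed by the 5 genes and 5 groups, 2 held a mouse far from the others, with a gap to the nearest mouse above Dixon's critical value; chance alone gives about 1 in 20. Ehhadh was lowest in replicate D of SEAP-M control siRNA, at a log10 ratio of -0.0678 (gap 0.844 of the range), where the other SEAP-M mice lay between -0.0224 and -0.014. Abcd3 was lowest in replicate B of PPARa siRNA, at -0.2467 (gap 0.98 of the range), where the other PPARa mice lay between -0.1072 and -0.1044.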

How the results depend on the processing

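The 3 members lower with PPARa-M siRNA than with vehicle became 0 after quantile normalization, after scaling to 1 interquartile range, with only the compared groups in the fit and at a threshold of 0.01, and 1 with the 1.5-fold filter (Acaa1b; 3 of 5 members passed the filter). Leaving out 1 mouse gave 0 to 2: 0 without vehicle replicate D and 1 (Ehhadh) without vehicle replicate A. The 1 member lower with PPARa-M than with PPARa siRNA became 0 after centring, quantile normalization and scaling, with only the compared groups, with the filter and at 0.01, and 0 to 1 without 1 mouse (0 without any PPARa replicate; without PPARa-M replicate A or B it was Acaa1b in place of Pex19). The 0 members for PPARa-M against SEAP-M became 1, Acaa1b, with array weights (limma adjusted p = 0.0125) and without PPARa-M replicate A or B (0 to 1 over mice left out); over its alternatives that adjusted p ran from 0.0125 to 0.41. For the difference between the Ppara siRNAs array weights gave 1, Acaa1b. A replicate block on the letters A to D gave 1 member for PPARa-M against SEAP-M (Acaa1b, limma adjusted p = 0.0267) and 2 for PPARa-M against PPARa (Acaa1b and Pex19) and changed no other count; the letters were not taken to pair the mice, since nothing in the labels ties them and the mean correlations of same-letter deviations were 0.104, 0.0438, -0.046 and -0.0096, although 10 of 20 arrays correlated best with an array of their own letter.

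Changes of sign, on the log2 scale, were limited to values near 0: Abcd3 for PPARa-M against SEAP-M (0.0264 after quantile normalization, 0.00834 after scaling), Ehhadh for both against both (0.0236 after quantile normalization), Abcd3 for PPARa-M and Pex11a for PPARa against vehicle (-0.0712 and 0.0163 with array weights). Without 1 mouse, the ranges that crossed 0 were, against vehicle, -0.115 to 0.0627 (Pex11a, PPARa-M), -0.115 to 0.0693 (Pex11a, PPARa), -0.0654 to 0.071 (Abcd3, PPARa-M), -0.043 to 0.0271 (Pex19, PPARa) and -0.011 to 0.0651 (Pex19, GL3), and -0.0272 to 0.0856 for Acaa1b, PPARa against GL3. The correlation with Ppara was -0.304 for Abcd3 within the Ppara siRNA mice and -0.118 for Pex19 within the others. The files give no signal over background, so dim probes could not be told from bright ones.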
